A study of Mus musculus with 12 samples.

Results

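The 10 apolipoprotein genes *Apoa1*, *Apoa2*, *Apoa4*, *Apoa5*, *Apob*, *Apoc1*, *Apoc2*, *Apoc3*, *Apoe* and *Apoh* were followed over the day in mouse liver. They were found by symbol among the 20069 genes of the deposited table, and all 10 were among the 10198 genes called expressed. Poly(A) RNA was sequenced from 12 liver samples of wild-type C57BL/6 male mice aged 3 to 6 months, and the labels name no transgene, mutation or drug in any group. All mice had been kept for 2 weeks or more in cycles of 12 hr of light and 12 hr of darkness. Livers were taken every 4 hr, at ZT2, ZT6 and ZT10 in the light phase and at ZT14, ZT18 and ZT22 in the dark phase, where ZT is the time since lights on. There were 2 series of the 6 time points, so each time point has n = 2. The p-values of the tests between time points and between phases rest on the spread between these samples. The rhythm test takes its permutation p from random orders of the 12 values. The liver was removed, so each time point came from other animals, and the number of mice behind a sample is not given in the sources used here.

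Apolipoproteins are the protein coats of lipoproteins, the particles that carry triglyceride and cholesterol through blood. Hepatocytes build very low density lipoprotein around a single apolipoprotein B molecule and secrete apolipoprotein A-I, onto which cholesterol is loaded to form high density lipoprotein. The small C apolipoproteins and apolipoprotein E move between particles, where they set how fast lipases work on them and how they are taken up by receptors. Feeding, which in mice falls mostly in the dark phase, changes how much lipid the liver exports, and several enzymes of lipid metabolism in liver follow the circadian clock.

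The signal is a gene's mean exon coverage in rpbp, or reads per base pair. The authors put it on a common scale of uniquely mapped sequences, and it is given here for 40000000 of them. The 2 ZT2 samples stood apart from the rest across genes. A ZT2 sample had correlations of 0.920 to 0.971 across expressed genes with samples of other times, against 0.985 between the 2 ZT2 samples. Albumin (*Alb*) was at 50445 and 53126 rpbp at ZT2 and at 93174 to 122523 rpbp in the other samples, a 2.07-fold difference in the means. Of the 7 secreted hepatocyte proteins listed, *Alb* and *Ttr* had their lowest time-point mean at ZT2, and the other 5 their highest: *Serpina1a* (3880 rpbp), *Fga* (13293 rpbp), *Fgb* (14386 rpbp), *Trf* (16236 rpbp) and *Ahsg* (12873 rpbp). The summed signal of the 6 Kupffer cell markers in the table (of 7 listed) was 571 and 572 rpbp at ZT2 and 281 to 459 rpbp elsewhere. The sums of the 5 endothelial markers (192 and 193 rpbp) and of the 4 stellate cell markers (194 and 207 rpbp) at ZT2 lay within the ranges of the other samples. So did those of the 3 cholangiocyte markers (10.6 and 10.6 rpbp) and the 3 red blood cell markers (397 and 513 rpbp) in the table. The red blood cell sum was 414 and 1174 rpbp in the 2 ZT10 samples. The part of these shifts in the ZT2 values of the apolipoprotein genes was not tested. In whole liver, fewer cells of a type and less RNA per cell cannot be told apart. The clock genes checked the time labels: *Arntl* was high at ZT18 and ZT22 (means of 26.4 and 26.7 rpbp) and lowest at ZT6 (1.60 rpbp), *Nr1d1* and *Dbp* were highest at ZT6 (125 and 217 rpbp) and *Per2* at ZT14 (38.0 rpbp). Of 3 intestine markers in the table, *Vil1* and *Lct* were near 0 (means of 0.0733 and 0.0133 rpbp), while *Fabp2* was at 272 rpbp. None of the 5 pancreas markers was in the table.

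Apolipoprotein mRNAs were among the most abundant of the liver. As the signal is per base of exon, levels can be compared roughly between genes. Shared exon bases and unique mapping, both described below, limit this. *Apoe* had the highest mean of the 10, 32358 ± 3522 rpbp (SD, n = 12), and ranked 4 among all genes, behind *Alb* in rank 1 at 97960 rpbp. *Apoa2* (17783 ± 7134 rpbp, rank 10), *Apoa1* (12906 ± 2911 rpbp, rank 12) and *Apoc1* (10344 ± 1499 rpbp, rank 19) followed, close to transthyretin (*Ttr*, 12533 rpbp, rank 13). *Apoc3* had 5513 ± 748 rpbp, *Apoh* 3577 ± 413 rpbp and *Apob* 2298 ± 253 rpbp. The lowest levels were those of *Apoa5* (1414 ± 374 rpbp), *Apoa4* (774 ± 584 rpbp) and *Apoc2* (525 ± 56.7 rpbp), the last in rank 313. Thus 4 of the 10 were among the 20 genes with the highest means and 6 among the 50 highest.

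In this order the top place and the middle were the same in every sample, and the places just below *Apoe* and at the bottom were not. *Apoe* was above *Apoa2* in 12 of 12 samples, although the ranges of these 2 genes over the samples overlapped. *Apoa2* was above *Apoa1* in only 7 of 12 samples, and *Apoa1* above *Apoc1* in 7 of 12, so these neighbours were not separated. From *Apoc1* to *Apoc3*, from *Apoc3* to *Apoh* and from *Apoh* to *Apob*, the ranges over all 12 samples did not overlap. *Apoa4* and *Apoc2* were not separated, since *Apoa4* was above *Apoc2* in 7 of 12 samples. Together the 10 mRNAs took 4.94% (ZT2, series 2) to 6.62% (ZT18, series 1) of the summed signal of all genes, with a median of 5.63%, against 3.26% to 8.21% for *Alb* alone.

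**Figure D1:**
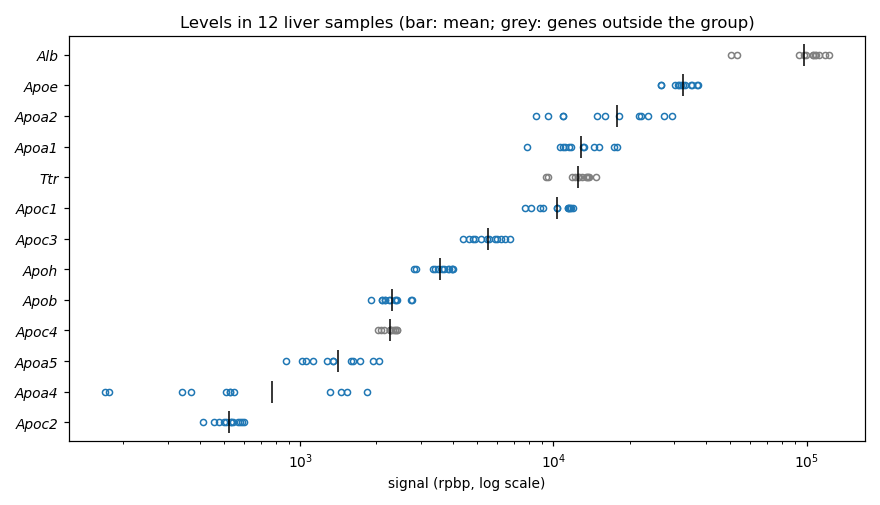
Signal of each gene in the 12 liver samples, in rpbp on a log axis, ordered by mean. Each circle is 1 sample, the bar is the mean of 12, and grey circles are *Alb*, *Ttr* and *Apoc4*, which are not among the 10. *Apoe* lies highest of the 10 at a mean of 32358 rpbp and *Apoc2* lowest at 525 rpbp, and *Apoa4* has the widest spread.

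In the genome, 7 of the 10 genes lie in 2 clusters (coordinates of mm9, GENCODE annotation). On chromosome 9, *Apoa1* (46036663 to 46038549), *Apoc3* (46041016 to 46043719, on the other strand), *Apoa4* (46048779 to 46051542) and *Apoa5* (46076716 to 46080002) fill 43.3 kb. On chromosome 7, *Apoc2* (20256928 to 20266772), *Apoc1* (20274833 to 20278007) and *Apoe* (20281458 to 20284515) lie with *Apoc4* in 27.6 kb on the minus strand. *Apoa2* is on chromosome 1 (173155185 to 173156510), *Apob* on chromosome 12 (7984454 to 8023641) and *Apoh* on chromosome 11 (108204668 to 108275710). Some exon bases belong to more than 1 gene, and the authors counted without regard to strand. *Apoc2* shares 112 exon bases with *Apoc4*, *Apoa4* shares 632 with the antisense gene *Gm10680*, and *Apoh* shares 30 with the antisense gene *Prkca*, so the levels of these 3 genes are uncertain. For *Apoa4* this is a large part of its 1815 bases of merged exons. For *Apoc2* it is 12.0% of 932 bases, but *Apoc4* was the higher of the pair, at a mean of 2267 rpbp against 525 rpbp. If reads of *Apoc4* fell evenly on its exons and were also counted for *Apoc2*, they would make up 272 rpbp, or 51.9% of the level of *Apoc2*.

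Promoters were read for 8 of the 10 genes from a RefSeq table (GRCm38.p6, another build than the signal's, 250 bases before to 50 after a start). *Apoc1* and *Apoc3* were not in it. Each was searched on both strands for the E-box CACGTG, which CLK:BMAL1 binds, the D-box TTATGTAA of the PAR bZIP factors, the nuclear receptor motif AGGTCA, the TATA box TATAAA and the HNF4 core CAAAGTCCA. No motif is contained in another. The 8 genes have 12 listed starts, and shares are given over the 32851 promoters of the table and over the 7215 of expressed genes. The E-box was found in *Apoa5* alone, at both of its starts (2 of 12 promoters, against 7.15% of all and 10.4% of those of expressed genes), 82 bases before the first of them. These 2 promoters share 275 of their 300 bases, so both hold the same E-box, found in 1 of 8 genes, and the same TATA box. TATAAA was found in 5 of 12, or 4 of 8 genes, *Apoa2*, *Apoa5*, *Apob* and *Apoe* (against 13.6% and 7.47%). AGGTCA was found in 3 of 12, in *Apoa2*, *Apoc2* and *Apoh* (against 16.3% and 13.3%). TTATGTAA (0.938% of all promoters) and CAAAGTCCA (0.475%) were in none of the 8. Below are the promoter with the E-box and those of *Apob* and *Apoa2*, which had the lowest p of the 10 in the rhythm test and in the time-of-day test. Capitals mark the motifs, and a match describes these letters only.
Apoa5, chr9:46268358-46268657, plus strand, E-box and TATAAA in capitals: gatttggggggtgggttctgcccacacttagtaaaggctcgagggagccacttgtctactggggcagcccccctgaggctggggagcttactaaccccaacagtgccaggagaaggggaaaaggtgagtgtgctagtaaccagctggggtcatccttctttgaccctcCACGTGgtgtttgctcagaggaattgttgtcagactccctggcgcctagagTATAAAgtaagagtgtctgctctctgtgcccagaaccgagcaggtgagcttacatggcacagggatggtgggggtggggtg
Apob, chr12:7977427-7977726, plus strand, TATAAA in capitals: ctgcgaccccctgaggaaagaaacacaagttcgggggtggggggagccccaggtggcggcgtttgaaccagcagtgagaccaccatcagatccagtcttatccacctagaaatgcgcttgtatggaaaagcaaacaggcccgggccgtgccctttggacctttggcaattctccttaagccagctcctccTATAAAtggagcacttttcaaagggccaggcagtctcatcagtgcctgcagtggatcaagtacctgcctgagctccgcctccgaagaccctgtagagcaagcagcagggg
Apoa2, first listed start, chr1:171224804-171225103, plus strand, TATAAA in capitals: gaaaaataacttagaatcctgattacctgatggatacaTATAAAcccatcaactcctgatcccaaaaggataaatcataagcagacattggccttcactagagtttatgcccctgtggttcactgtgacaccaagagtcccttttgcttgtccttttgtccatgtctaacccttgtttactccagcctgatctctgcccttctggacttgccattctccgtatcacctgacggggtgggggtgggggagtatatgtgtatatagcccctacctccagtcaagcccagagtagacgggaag

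**Figure D2:**
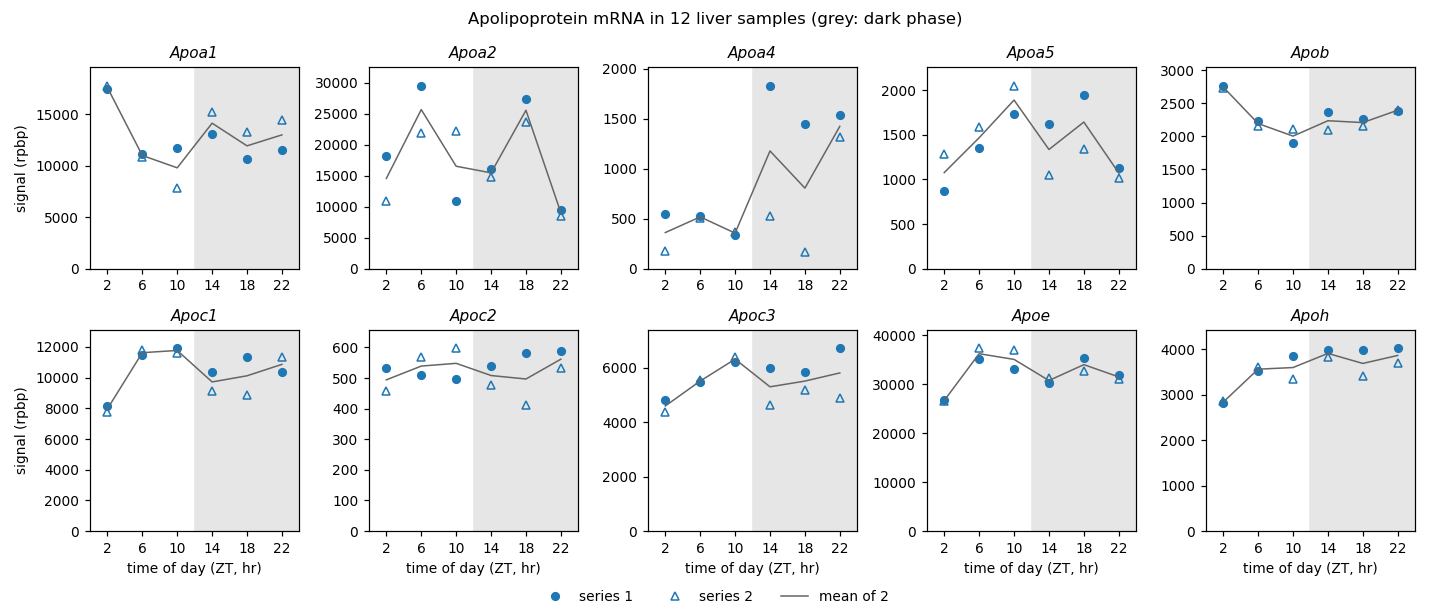
Signal of the 10 genes in rpbp (axes from 0) against time of day in hr, with the dark phase in grey. Filled circles are series 1, open triangles series 2, and lines join the means of the 2 samples. *Apoa1* and *Apob* are highest at ZT2, *Apoc1*, *Apoe* and *Apoh* lowest at ZT2, *Apoa2* has its lowest values at ZT22, and the series part at ZT14 and ZT18 in *Apoa4*.

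Whether the 10 mRNAs cycle over 24 hr was asked first. F24, the share of a gene's variance over the 12 samples that a 24 hr cosine takes up, was computed with a p from 10000 permutations. A gene was called rhythmic at a p below 0.05, F24 above 0.45 and a ratio of the highest to the lowest value (amplitude) above 1.5. None of the 10 was called (0 of 10), against 19.1% of the 10198 expressed genes. By the adjusted permutation p (Benjamini-Hochberg over all expressed genes), 0 of 10 passed, against 5.62% of expressed genes. In limma with a cosine and a sine 0 of 10 passed at an adjusted p below 0.05, against 8.61%. The lowest p there was that of *Apob* (unadjusted p = 0.0273, adjusted p = 0.133). Only *Apob* had an unadjusted permutation p below 0.05 (1 of 10, against 26.6% of expressed genes). The median F24 of the 10 was 0.238, against 0.310 for the expressed genes, and the median amplitude was 1.53, against 1.64. The share of variance at 12 hr, which was not tested, had a median of 0.362 in the 10, from 0.0278 (*Apoa4*) to 0.670 (*Apoa2*), against 0.202 for the expressed genes. It was above F24 in 6 of the 10, against 39.4% of expressed genes.

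*Apob* came nearest to a call. Its mRNA encodes the structural protein of very low density lipoprotein. In series 1 *Apob* was at 2765, 2237, 1899, 2369, 2262 and 2385 rpbp from ZT2 to ZT22. In series 2 it was at 2728, 2153, 2110, 2104, 2156 and 2406 rpbp. Both ZT2 samples lay above all 10 others, and 1 of the 2 ZT10 samples was the lowest. *Apob* had an F24 of 0.577 (permutation p = 0.0175, adjusted p = 0.112) with a phase of 0.220 hr, shortly after lights on. Its amplitude of 1.46 missed the limit, and with both ZT2 samples left out F24 was 0.498 (permutation p = 0.0890). The samples of a time point differed little, with a spread (SD) of 4.62% of the mean, and the highest and lowest time-point means differed 1.37-fold.

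*Apoa1* encodes the main protein of high density lipoprotein. In series 1 *Apoa1* was at 17423, 11106, 11727, 13066, 10611 and 11505 rpbp from ZT2 to ZT22. In series 2 it was at 17762, 10884, 7866, 15191, 13250 and 14484 rpbp. As in *Apob*, both ZT2 samples lay above all others, and the lowest value was at ZT10 in series 2. The means at ZT2 and ZT10 were 17593 ± 240.1 and 9796 ± 2731 rpbp (SD, n = 2). F24 was only 0.243 (permutation p = 0.295), while the 12 hr component took up 0.562 of the variance, and the mean at ZT14 was again above those at ZT6 and ZT10.

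*Apoa2*, for another main protein of high density lipoprotein, had the widest span of time-point means apart from *Apoa4*. In series 1 *Apoa2* was at 18226, 29476, 10884, 16035, 27385 and 9506 rpbp from ZT2 to ZT22. In series 2 it was at 10879, 21800, 22142, 14857, 23665 and 8537 rpbp. Values were high at ZT6 and ZT18 in both series and lowest at ZT22, where both samples lay below all 10 others (1 of the 10 genes, against 1.54% of expressed genes). The mean at ZT6 was 2.84 times that at ZT22. F24 was 0.0767 (permutation p = 0.691), while the 12 hr component took up 0.670 of the variance, which is a description and was not tested. At ZT10 the 2 samples differed 2.03-fold.

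For *Apoa4*, whose protein is made in intestine and liver and rises with lipid load, the 2 series differed. In series 1 *Apoa4* was at 547, 528, 341, 1830, 1443 and 1534 rpbp from ZT2 to ZT22. In series 2 it was at 176, 509, 371, 526, 170 and 1315 rpbp. In series 1 all 3 dark-phase values were above all light-phase values, whereas in series 2 only ZT22 was high and ZT18 was the lowest of all 12. The amplitude was 10.8, the largest of the 10, but at ZT18 the 2 samples alone differed 8.50-fold. F24 was 0.278 (permutation p = 0.219). Without ZT18 of series 2 it was 0.601 and *Apoa4* was then called, but without ZT18 of series 1 it was 0.197. The call thus hung on which of the 2 differing samples was left out.

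*Apoa5*, whose protein aids lipoprotein lipase and lowers plasma triglyceride, is the gene with the E-box above. In series 1 *Apoa5* was at 874, 1351, 1729, 1618, 1943 and 1126 rpbp from ZT2 to ZT22. In series 2 it was at 1280, 1584, 2050, 1053, 1343 and 1020 rpbp. In both series the values were higher at ZT10 than at ZT2 and ZT22, and the series differed 1.54-fold at ZT14. F24 was 0.380 (permutation p = 0.125) with a phase of 11.6 hr and an amplitude of 2.34. Leaving out ZT14 of series 2 gave an F24 of 0.675, and leaving out ZT18 of series 1 gave 0.569. In both cases *Apoa5* was called. Leaving out the other sample of the same time gave 0.363 (ZT14 of series 1) and 0.379 (ZT18 of series 2). Each call thus hung on which sample was left out.

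The 3 C apolipoproteins, which are small exchangeable proteins, had F24 values of 0.175 or lower. *Apoc1*, an inhibitor of lipoprotein uptake, was at 8176, 11478, 11922, 10339, 11373 and 10357 rpbp from ZT2 to ZT22 in series 1. In series 2 *Apoc1* was at 7753, 11773, 11620, 9101, 8866 and 11371 rpbp. Both ZT2 samples were the lowest, and F24 was 0.175 (permutation p = 0.411). *Apoc3*, an inhibitor of lipoprotein lipase, was at 4804, 5487, 6234, 5984, 5857 and 6728 rpbp in series 1. In series 2 *Apoc3* was at 4398, 5548, 6412, 4628, 5176 and 4905 rpbp. In both series the lowest *Apoc3* value was at ZT2, but over the 12 samples the ZT2 values overlapped the rest (F24 = 0.120, permutation p = 0.549). *Apoc2*, the cofactor that lipoprotein lipase needs, was at 531, 509, 498, 540, 581 and 589 rpbp in series 1. In series 2 *Apoc2* was at 457, 570, 598, 476, 413 and 534 rpbp. No time point stood out for *Apoc2*, and it had the lowest F24 of the 10 (0.0152, permutation p = 0.935).

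*Apoe*, the ligand by which remnant particles bind their receptors in liver, was tightly repeated between series. In series 1 *Apoe* was at 26673, 35080, 33054, 30283, 35369 and 31908 rpbp from ZT2 to ZT22. In series 2 it was at 26657, 37354, 37056, 31201, 32603 and 31055 rpbp. The 2 ZT2 values were nearly the same and below all others, and the mean at ZT6 was 1.36 times that at ZT2. F24 was 0.234 (permutation p = 0.307), and the 12 hr component took up 0.637 of the variance. *Apoh*, a plasma glycoprotein that binds phospholipid and is also called beta-2-glycoprotein I, was at 2820, 3512, 3854, 3991, 3975 and 4025 rpbp in series 1. In series 2 *Apoh* was at 2854, 3613, 3342, 3828, 3403 and 3704 rpbp. Both ZT2 samples were again the lowest, F24 was 0.399 (permutation p = 0.102) and the phase was 15.3 hr.

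A second test asked for any difference between the 6 time points, whatever its shape, with limma's moderated F-test on log2(rpbp + 1). Again 0 of 10 genes had an adjusted p below 0.05 (Benjamini-Hochberg over all expressed genes), against 17.6% of the 10198 genes. At an unadjusted p below 0.05 there were 6 of the 10, against 37.2% of expressed genes. They were *Apoa2* (adjusted p = 0.0612), *Apoe* (0.0625), *Apoc1* (0.0720), *Apob* (0.0789), *Apoa1* (0.0884) and *Apoh* (0.0909). *Apoa5*, *Apoa4*, *Apoc3* and *Apoc2* had adjusted p-values of 0.160, 0.368, 0.375 and 0.844. These 6 genes lay so close to the limit that other settings moved some past it. *Apoe* had an adjusted p of 0.0453 with a minimum of 16 rpbp, where 24.1% of all genes tested passed, and *Apoa2* one of 0.0459 when limma was fitted with a trend, where 20.4% passed. Leaving out 1 sample also moved *Apoa2* and *Apoa1* (ZT10) and *Apoc1* (ZT18) past the limit, but these were the times at which the 2 series differed most for each gene (2.03-fold, 1.49-fold and 1.28-fold). With 1 sample left, that time adds nothing to the spread and is assumed to vary like the others, so the lower p-values do not speak for a difference. Without both ZT2 samples, 0 of 10 passed, against 4.73% of all genes tested, and *Apoa2* alone had an unadjusted p below 0.05 (adjusted p = 0.0765).

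The early light phase set the extreme for 5 of the 10 genes. At ZT2 both samples lay outside the range of the other 10 samples in these 5, upward in 2 and downward in 3. *Apoa1* and *Apob* were above (2 of 10, against 10.4% of expressed genes), at 1.47 and 1.24 times the mean of the other samples. *Apoc1*, *Apoe* and *Apoh* were below (3 of 10, against 9.58%), and the mean of the other samples was 1.36, 1.26 and 1.31 times theirs. These positions were kept with size factors by the median of ratios and with scaling to the sum without the 100 highest genes. With the former, *Apoc3* also lay below. At ZT6, ZT10, ZT14 and ZT18, both samples lay outside the range of the others in 0 of the 10 genes. The shares of expressed genes above and below were 5.68% and 3.49% at ZT6, 2.68% and 4.18% at ZT10, 3.53% and 3% at ZT14, and 1.26% and 3.13% at ZT18. At ZT22, 0 of 10 lay above, against 2.15%, and *Apoa2* alone lay below. With the positions chosen after the values were seen, these counts are a description, and no test of ZT2 against the other times was made.

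In the chromosome 9 cluster, *Apoa1* was thus highest at ZT2 while its neighbour *Apoc3* was lowest there in both series. In the chromosome 7 cluster, *Apoc1* and *Apoe* were both lowest at ZT2. *Apoc4*, which lies within the annotated span of *Apoc2* and is not among the 10, was also below at ZT2, at 2087 and 2025 rpbp against 2138 to 2417 rpbp in the other samples. *Apoc2* itself did not share this position, but reads of *Apoc4* may be part of its signal, as given above.

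**Figure D3:**
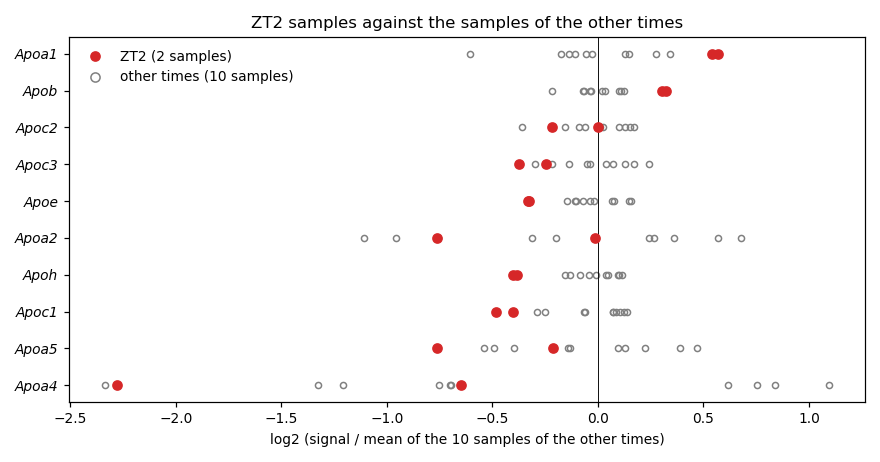
log2 of the signal over the mean of the 10 samples of the other time points, for each gene. Red points are the 2 ZT2 samples and open circles the 10 others. The red points lie right of all circles for *Apoa1* and *Apob* and left of all circles for *Apoc1*, *Apoe* and *Apoh*.

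The last test compared the dark phase with the light phase, the times when mice mostly eat and rest. In limma, 0 of 10 genes had an adjusted p below 0.05, against 2.84% of expressed genes higher and 2.21% lower in the dark phase. At an unadjusted p below 0.05 there was 1 of 10, *Apoh*, against 22.6% of expressed genes. *Apoh* was higher in the dark phase by 0.20 on the log2 scale (95% interval 0.06 to 0.35, adjusted p = 0.107), and the 2 phases overlapped. Without the ZT2 samples this difference was 0.09 (interval −0.09 to 0.27). *Apoa4* had the largest difference, 1.20 higher in the dark phase, with an interval of −0.04 to 2.43 (adjusted p = 0.235). It was 1.79 in series 1 and 0.61 in series 2.

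For the other 8 genes the estimates lay between −0.22 (*Apoa2*, interval −0.66 to 0.23) and 0.07 (*Apoa1*, interval −0.19 to 0.33). The narrowest intervals were those of *Apoe*, −0.14 to 0.11 around −0.01, and of *Apob*, −0.14 to 0.12 around −0.01. Without the ZT2 samples these became −0.15 for *Apoe* (interval −0.31 to 0.00) and 0.12 for *Apob* (interval −0.04 to 0.28), so the values near 0 depended on the ZT2 samples. The sign of the difference was opposite in the 2 series for 7 of the 10 genes, *Apoa1*, *Apoa5*, *Apob*, *Apoc1*, *Apoc2*, *Apoc3* and *Apoe*. Of these 7 the series differed most for *Apoa5*, with 0.26 in series 1 and −0.51 in series 2 (estimate −0.12, interval −0.47 to 0.22). For *Apoa1* the difference was −0.17 in series 1 and 0.31 in series 2, and without the ZT2 samples it was 0.33 (interval 0.01 to 0.65, adjusted p = 0.165 in limma). In none of the settings tried for this comparison did 1 of the 10 pass.

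**Figure D4:**
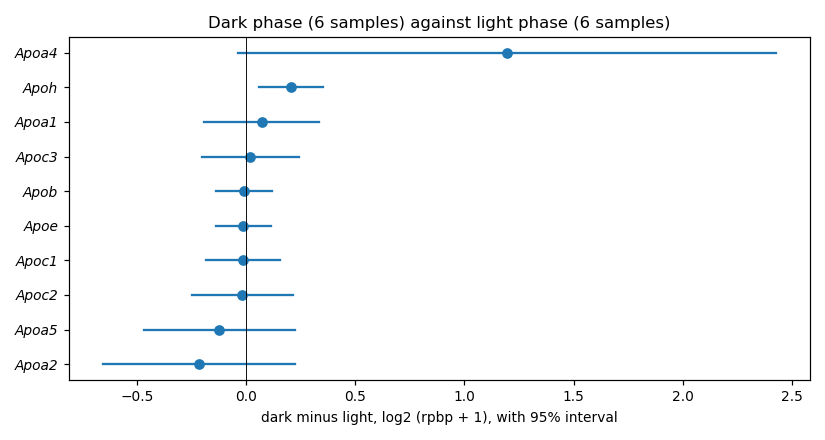
Difference between the dark phase and the light phase for each gene, in log2(rpbp + 1), from limma over 6 samples a phase. Points are estimates and lines are 95% intervals. Only the interval of *Apoh*, 0.06 to 0.35, lies wholly on 1 side of 0, and that of *Apoa4* is the widest.

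Of 51 other expressed genes that act on the same particles or on their genes, 27 were rhythmic or had an adjusted time-of-day p below 0.05, against 26.7% of all expressed genes. With the amplitude taken from time-point means this was 24, without *Apobec1*, *Lrp1* and *Mia2*, against 22.6% of all expressed genes. The 27 came from 6 lists, and their number by list follows. They were 3 of 7 genes listed as other apolipoproteins (median F24 of the list 0.367), 4 of 9 genes of lipoprotein assembly and apoB mRNA editing (0.165), and 4 of 8 lipases and their regulators (0.374). The rest were 5 of 9 lipoprotein receptors and their partners (0.459), 2 of 4 sterol and phospholipid exporters (0.496), and 9 of 14 regulators of apolipoprotein genes (0.532), beside a median of 0.310 over all expressed genes. Against the light phase, *Sdc1* and *Rora* were higher in the dark phase (2 of 51, against 2.84% of all expressed genes), and *Abcg8*, *Apool*, *Cebpa*, *Lpl*, *Nr1d1* and *Pltp* were lower (6 of 51, against 2.21%). The lists were chosen with earlier results of these data known, and no test of a list was made.

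Of the other apolipoproteins, *Saa4*, a serum amyloid A protein of high density lipoprotein, ranged from a mean of 357 rpbp at ZT6 to 1605 rpbp at ZT2 (limma adjusted p = 0.0107). *Clu*, or apolipoprotein J, ranged from 1629 rpbp at ZT6 to 2962 rpbp at ZT2 (adjusted p = 0.0202). *Apon* was called rhythmic (F24 = 0.567, permutation p = 0.0327, adjusted p = 0.154) with a phase of 22.6 hr. All 3 had their highest mean at ZT2, like *Apoa1* and *Apob*.

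In lipoprotein assembly, *Sar1b*, the GTPase of the coats that carry these particles out of the endoplasmic reticulum, was called rhythmic. Its means at ZT2 and ZT10 were 313 and 521 rpbp (F24 = 0.768, permutation p = 0.00220, adjusted p = 0.0431). *Mia2*, which helps to load large cargo into such coats, was also called, with a phase of 11.8 hr and an amplitude that only just passed its limit. *Apobec1*, the enzyme that edits *Apob* mRNA, was called with a phase of 20.1 hr but was low (mean of 17.1 rpbp). Both calls were lost with the amplitude taken from time-point means (1.46 and 1.45), and the adjusted permutation p was 0.135 for *Mia2* and 0.141 for *Apobec1*. *Pltp*, which transfers phospholipid between particles, had its highest mean at ZT6 (134.5 rpbp) and its lowest at ZT14 (19.2 rpbp, limma adjusted p = 0.00697). *Mttp*, which loads lipid onto apolipoprotein B, was at 218 rpbp, with means from 199 to 228 rpbp (limma adjusted p = 0.913).

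Among the lipases and their regulators, *Angptl4*, a fasting-induced inhibitor of lipoprotein lipase, was called rhythmic. Its means were 35.4 rpbp at ZT2 and 118 rpbp at ZT10 (F24 = 0.695, permutation p = 0.00720, adjusted p = 0.0748). *Lpl* and *Lipg* were low in liver, with means of 9.83 and 10.7 rpbp. *Lpl* was highest at ZT2 (22.4 rpbp) and *Lipg* lowest there (3.72 rpbp), with adjusted p-values of 0.0133 and 0.0153 in limma.

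Among the receptors, *Sdc1*, a heparan sulfate proteoglycan that binds remnants, rose by 0.50 on the log2 scale from the light to the dark phase (limma adjusted p = 0.00313). *Scarb1*, the receptor for high density lipoprotein, and *Sort1*, a sorting receptor for apolipoprotein B, were called rhythmic with phases around lights on. Their adjusted permutation p-values were 0.181 and 0.0453. The exporters *Abcg5* and *Abcg8*, the pair that secretes sterols into bile, were called rhythmic as well. Their phases were 9.54 and 7.02 hr, their amplitudes 2.82 and 2.78, and their adjusted permutation p-values 0.112 and 0.0228.

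Among the regulators, *Nr1d1*, the clock repressor REV-ERB alpha, had the largest swing, from 3.96 rpbp at ZT18 to 125 rpbp at ZT6 (limma adjusted p = 8.77e-05). *Ppara*, the fatty acid receptor, had means between 73.7 rpbp (ZT2) and 215 rpbp (ZT6) (adjusted p = 0.00221), and *Nr1h4*, the bile acid receptor, between 89.9 rpbp (ZT2) and 143 rpbp (ZT18) (adjusted p = 0.0302). *Hnf4a*, a main activator of apolipoprotein genes in liver, was at 474 rpbp with an amplitude of 1.24 and was not called (F24 = 0.499, permutation p = 0.0595).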

How the data were processed

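Poly(A) RNA of 12 mouse liver samples, 2 series of 6 time points, was sequenced by the authors. Libraries were made from 4 ug of total RNA. The submitters' processing notes name CASAVA 1.8, TopHat and mm9. Per the study's methods, the authors kept uniquely mapped sequences, and took the base coverage of a gene's flattened exons, both strands together, over their length. The deposited signal is this coverage per base pair, on the authors' scale of 10000000 uniquely mapped sequences. As it gives no read counts, neither counting intervals nor count tests were used. Unique mapping lowers genes with near-identical copies. The deposited table also holds the authors' own F24 score, its phase and its p-value for each gene, which were not used. Columns named ZT20 hold the ZT22 samples.

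The signal was multiplied by 4. Genes with at least 1 value above 8 rpbp counted as expressed. F24 and its p (10000 permutations, seed 1), limma over the 6 time points and the limma contrast of the phases, both on log2(rpbp + 1), were run over all 10198 expressed genes with Benjamini-Hochberg adjustment. The fold changes understate low genes on that scale. A strong rhythm needed F24 above 0.6 and an amplitude above 1.75, which is stricter than the call that none of the 10 met. The members and lists were chosen with earlier results of these data known. Named were all 10 members, up to 4 genes a list that were rhythmic or had an adjusted time-of-day p below 0.05 (by lowest p), *Alb*, *Ttr*, 4 clock genes and neighbours of members. A few genes that this rule names are not reported here. *Mttp*, *Hnf4a*, *Rora*, *Apool*, *Cebpa* and the intestine markers were named after their values were seen. Alternatives were other expression minimums, scalings, pseudocounts, tests, a block for the series, and each sample or series left out. Leaving out both ZT2 samples was chosen after seeing the data. The tests were tried on simulated data first. Python 3.11.15, numpy 2.4.6, pandas 2.3.3, R 4.3.3 and limma 3.58.1 were used.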

Additional observations from a re-analysis of the deposited data

How the results depend on the processing

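No member passed the comparison of the phases under any of its 20 alternatives, and no member was called rhythmic under 22 of 25. Some of the 25 could not have added a call. The other expression minimums left each member's F24 and permutation p as they were, and an amplitude from time-point means can only be smaller. The number called rhythmic was 0 to 1 with a sample left out, with *Apoa5* called without ZT14 of series 2 or ZT18 of series 1 and *Apoa4* without ZT18 of series 2, where 17.2%, 18.5% and 17.3% of all genes tested were called. Where 1 sample was left out, its time has no spread of its own, so those member counts of the time-of-day test are not listed here. The number past the time-of-day test was 0 under 12 of 20 alternatives. It was 1 with a minimum of 16 rpbp (*Apoe*), 1 with the sum without the 100 highest genes (*Apob*, adjusted p = 0.0434), 1 with limma with trend (*Apoa2*) and 2 with size factors by the median of ratios (*Apoc1*, adjusted p = 0.0499, and *Apoe*, 0.0454), where 24.1%, 19.0%, 20.4% and 18.8% of all genes tested passed, so 1 or 2 of 10 was below or near the share of all genes. The cause was not tested. The scalings moved no sample by more than 0.07 on the log2 scale. Without both ZT2 samples, 0 members passed each of the 3 tests. Of all genes tested, 15.2% were then called rhythmic, 4.73% passed for time of day, and 4.65% were higher and 4.90% lower in the dark phase. The count over all genes then went from 1792 to 476 for time of day, and from 290 higher and 225 lower to 468 and 493 for the phases. It was 728 or 759 without 1 ZT2 sample and 876 or 901 without 1 ZT6 sample. With a single series, 360 or 284 genes were called rhythmic, against 1948. The limma fit over 6 time points has no residual degrees of freedom in a single series, so only differences are given there, and no simpler limma design was fitted to 1 series.

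The series number did not pair the samples, since the differences between series at 15 pairs of time points had correlations across genes of −0.15 to 0.21. With the series as a replicate block, 0 members passed each test, with 2120 genes called rhythmic, 1395 past the time-of-day test and 232 higher and 142 lower in the dark phase.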
